A study of Mus musculus with 6 samples.

Results

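The expression of 40 genes of the cell cycle and of DNA replication was examined in the liver of pregnant mice (dams) with and without hepatocyte ChREBP. The 40 genes were listed by name, with 20 acting around the start and course of DNA replication (G1/S) and 20 acting from the end of replication through mitosis (G2/M). All 40 were found among the 56691 Ensembl gene IDs of the deposited table. Of these, 39 had a mean of at least 10 reads over the 6 libraries and were tested, and Gins2 was not. The KPF group held 3 hChrebp-KO dams, in which deletion of a floxed exon of Chrebp (Mlxipl) was driven in hepatocytes by an Alb-Cre transgene (Chrebp flox/flox; Cre +/-). The WPF group held 3 dams that the sample labels call WT and the study calls Chrebp flox/flox without Cre. Dams of both groups were mated with Chrebp flox/flox males, received a high-fructose diet (HFrD) during pregnancy and were killed in late gestation, so that all 6 libraries shared pregnancy and diet and the groups differed by genotype. The age of the dams was not given in the sources used here. Each library was made from poly(A) RNA of whole liver, and non-parenchymal cells of KPF liver keep an intact Chrebp gene.

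A cell that enters the cycle first makes D-type and E-type cyclins, which release E2F transcription factors, and E2F genes then supply the helicase, the clamp and the nucleotides for DNA synthesis. Later, Cdk1 with cyclins A and B, the Aurora and Polo kinases and the spindle motors divide the chromosomes, and many of their genes are read mainly in G2 and M phase. The maternal liver grows during pregnancy, with enlargement and division of hepatocytes, and many mouse hepatocytes are polyploid, since they can copy their DNA without completing division.

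Of the 19 tested G1/S genes, 6 were called higher in KPF, among them 4 of the 6 genes of the MCM helicase, and 0 were called lower. Over all genes tested, 6.11% were called higher and 3.93% lower. The G2/M genes varied chiefly between dams of the same group. All 20 were highest in KPF replicate 3 among the KPF dams and in WPF replicate 4 among the WPF dams, with medians of 15.8- and 4.04-fold over the next dam of the group, and 0 of the 20 were called. A gene was called where the groups differed by 1.5-fold or more and edgeR's quasi-likelihood test gave p below 0.05 before adjustment. None of the 14138 genes tested had an adjusted p under 0.05 in edgeR (Benjamini-Hochberg), 1525 had an unadjusted p under 0.05, DESeq2 gave 167 genes with an adjusted p under 0.05, and limma on log2(FPKM + 1) gave 0. Every call is therefore a call at an unadjusted p.

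The libraries held between 10694496 and 14496630 reads counted on genes, and KPF replicate 3 and WPF replicate 4 were the deepest of their groups. Levels are given as CPM (read counts scaled to a common library size, with TMM factors between 0.869 and 1.18) and, where genes are set against each other, as the deposited FPKM (counts scaled by exonic length and library total). Replicates of a group differed by far more than sampling noise (chi-square per gene of at least 35.5). Mlxipl, the gene of ChREBP, measured 178, 694 and 841 CPM in the KPF dams 1, 2 and 3, against 987, 1274 and 879 CPM in the WPF dams 2, 3 and 4, the order in which values are given throughout. Its groups did not overlap, but KPF replicate 3 was close to WPF replicate 4 and its log2 fold change of -0.87 (SE 0.53) was not called (adjusted p = 0.577, edgeR). The counts cover the whole gene, so they do not show the deleted exon alone.

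Because the G2/M genes moved together across libraries, the sequence before their start sites is shown beside that of helicase genes of the G1/S group. RefSeq promoter windows (mouse GRCm38.p6, a build other than that of the deposited coordinates) were at hand for 31 of the 40 genes, 16 of G1/S and 15 of G2/M, and the 250 bases before each start were searched on both strands. The first motif was TTTGAA, the core of the cell cycle homology region. The next was CCAAT, which is bound by NF-Y. The E2F element was searched in the form GCGGGAA and, as an alternative that shares 6 letters and can overlap, in the form GGCGGGA. The last was TATAAA, the TATA box. The 8 sequences below are the 150 bases before the start, 5′ to 3′ on the gene's strand, with these motif letters of either strand in capitals, and were chosen after the matches were seen to show windows with and without TTTGAA.

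Cdk1 (chr10:69352913-69353062, minus strand): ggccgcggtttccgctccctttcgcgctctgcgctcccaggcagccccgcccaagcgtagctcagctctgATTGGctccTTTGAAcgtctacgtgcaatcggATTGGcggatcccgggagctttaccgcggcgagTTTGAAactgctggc

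Cdc20 (chr4:118437344-118437493, minus strand): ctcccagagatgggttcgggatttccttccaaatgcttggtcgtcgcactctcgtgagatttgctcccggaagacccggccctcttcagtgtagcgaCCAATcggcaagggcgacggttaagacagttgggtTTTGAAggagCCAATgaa

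Mki67 (chr7:135716380-135716529, minus strand): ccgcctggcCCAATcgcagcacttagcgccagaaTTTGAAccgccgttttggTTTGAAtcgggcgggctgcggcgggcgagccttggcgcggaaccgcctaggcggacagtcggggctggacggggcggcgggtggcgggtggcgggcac

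Top2a (chr11:99024190-99024339, minus strand): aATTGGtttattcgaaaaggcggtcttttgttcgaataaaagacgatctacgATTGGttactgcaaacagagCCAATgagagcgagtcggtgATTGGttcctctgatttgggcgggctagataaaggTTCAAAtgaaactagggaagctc

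Plk1 (chr7:122159285-122159434, plus strand): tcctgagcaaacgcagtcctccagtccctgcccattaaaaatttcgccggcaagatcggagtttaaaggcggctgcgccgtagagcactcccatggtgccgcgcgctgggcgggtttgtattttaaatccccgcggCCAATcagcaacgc

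Mcm2 (chr6:88898781-88898930, minus strand): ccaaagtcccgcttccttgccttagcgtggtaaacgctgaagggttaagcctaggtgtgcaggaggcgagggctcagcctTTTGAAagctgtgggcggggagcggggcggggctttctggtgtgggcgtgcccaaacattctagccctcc

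Mcm3 (chr1:20820313-20820462, minus strand): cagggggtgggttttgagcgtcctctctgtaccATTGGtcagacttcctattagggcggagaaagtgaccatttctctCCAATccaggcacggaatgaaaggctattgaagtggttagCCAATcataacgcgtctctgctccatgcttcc

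Mcm5 (chr8:75109359-75109508, plus strand): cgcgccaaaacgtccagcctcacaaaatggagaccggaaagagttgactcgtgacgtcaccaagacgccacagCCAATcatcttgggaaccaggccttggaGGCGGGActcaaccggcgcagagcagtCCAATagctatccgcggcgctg

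In Cdk1, Cdc20 and Top2a a TTTGAA, read on either strand, began 15, 18 and 23 bases before the start, with a CCAAT box upstream of it, and in Mki67 the TTTGAA letters began 98 and 116 bases before it. Plk1 held a CCAAT box without TTTGAA letters. The letters TTTGAA were found in 6 of 15 G2/M genes (40%), in 1 of 16 G1/S genes (Mcm2, 6.25%) and in 18.3% of the 27025 genes of the table. All 6 of these G2/M genes also held CCAAT, a pairing present in 6.45% of all genes. CCAAT, with or without TTTGAA, stood in 13 of 15 G2/M genes (86.7%), in 9 of 16 G1/S genes (56.3%) and in 37.5% of all genes. The E2F letters were found in 4 G2/M genes (26.7%) and 6 G1/S genes (37.5%), against 12.8% of all genes, and TATAAA in 0 members against 14.3% of all genes. The members' windows were richer in G and C (median 62.8% in G1/S and 59.6% in G2/M) than those of all genes (52.4%). A match shows only that the letters are there.

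Of the 19 tested G1/S genes, 6 were called higher in KPF, against 864 (6.11%) of the 14138 genes tested, and 0 were called lower, against 556 (3.93%). Fitted log2 fold changes of the G1/S genes ran from -0.69 to 1.59 with a median of 0.68, while the median of all genes tested was 0.02. The 6 genes were Ccne2, E2f1, Mcm2, Mcm3, Mcm4 and Mcm7, with adjusted p between 0.430 and 0.458 (edgeR). Their groups did not overlap for Ccne2 and Mcm7, as was the case, in this direction, for 7.48% of all genes tested (8.04% in the other direction), and overlapped for the other 4. The count depended on single dams. It was 0 without KPF replicate 1, 10 without KPF replicate 2, 5 without WPF replicate 4, and 1 without KPF replicate 3, WPF replicate 2 or WPF replicate 3. Over all 14138 genes tested, 678, 682 and 796 were called higher without KPF replicate 1, KPF replicate 2 and WPF replicate 4. Without KPF replicate 3, WPF replicate 2 and WPF replicate 3, the numbers over all genes were 1233, 460 and 445. With library totals in place of TMM the G1/S count was 1, Ccne2, against 574 over all genes. With limma on log2(FPKM + 1) the G1/S count was 0, against 236 over all genes.

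**Figure D1:**
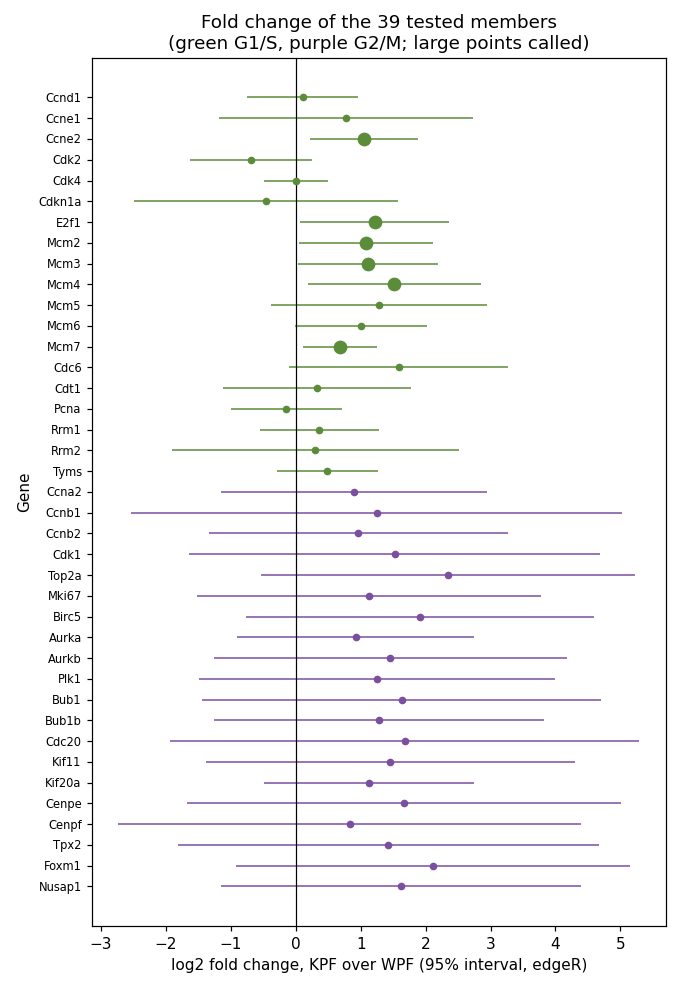
Log2 fold change (KPF over WPF, x axis) of the 39 tested genes, with 95% intervals from edgeR; G1/S genes are green, G2/M genes purple, and large points are the 6 called genes. The 4 called MCM genes lie right of 0, and the intervals of all 20 G2/M genes are wide and include 0.

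The helicase genes held 4 of the 6 calls. Mcm2 to Mcm7 encode the 6 subunits of the MCM complex, the ring that is loaded on replication origins and unwinds DNA. Their summed level was 65.2, 33.0 and 65.7 CPM in KPF replicates 1, 2 and 3 and 24.0, 28.5 and 34.8 CPM in WPF replicates 2, 3 and 4. KPF replicates 1 and 3 were thus above every WPF dam, and KPF replicate 2 lay just below the highest WPF dam. The sum of 11 erythroid markers was also lowest in KPF replicate 2 within KPF and in WPF replicate 2 within WPF. In WPF its order was that of the MCM sum, at 38.9, 96.5 and 234 CPM. In KPF it was at 352, 81.5 and 215 CPM, with replicate 1 above replicate 3, whereas the MCM sums of these dams were nearly level. The part of erythroid RNA in the MCM sum was not tested. All 6 MCM genes were fitted higher in KPF, and 4 were called. The change of Mcm4 (ENSMUSG00000022673, chromosome 16, 15441761 to 15455264, minus strand, GRCm39) was the largest of the 4, from 0.710, 1.07 and 2.64 CPM in WPF to 4.25, 2.55 and 6.09 CPM in KPF. WPF replicate 4 and KPF replicate 2 were nearly level for this gene, and the other KPF dams were above both. Its log2 fold change was 1.52 (SE 0.57, adjusted p = 0.444, edgeR; exact two-sided permutation test p = 0.2, where 0.1 is the smallest that 3 against 3 can give). Mcm2 was at 9.35, 2.90 and 7.90 CPM in KPF against 3.02, 2.77 and 3.69 CPM in WPF (log2 fold change 1.08, SE 0.45). KPF replicate 2 sat among the WPF dams here, too. Mcm3 was at 6.42, 3.51 and 7.04 CPM in KPF against 1.60, 1.99 and 4.16 CPM in WPF (log2 fold change 1.12, SE 0.47). Mcm7 (ENSMUSG00000029730, chromosome 5, 138162845 to 138170684, minus strand) had the highest level per length of the 6 (mean of 4.83 FPKM), and was at 32.8, 18.8 and 27.9 CPM in KPF and 15.3, 17.8 and 16.3 CPM in WPF. Every KPF dam was above every WPF dam, and the log2 fold change was 0.68 (SE 0.24). Mcm7 overlaps Cops6 and Ap4m1 on the other strand over 64 and 421 bases, and as the strand setting of the counting was not given in the sources used here, reads of such stretches may not be told apart. Mcm5 and Mcm6 had fitted log2 fold changes of 1.28 (SE 0.72) and 1.01 (SE 0.44) and were not called.

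The factors that load and activate the helicase were not called. Cdc6, a loader of the MCM ring, was measured with 3 to 20 reads per library and reached 1.89, 0.351 and 1.71 CPM in KPF against 0.266, 0.355 and 0.644 CPM in WPF. KPF replicate 2 was at the WPF level, and the log2 fold change of 1.59 (SE 0.73) was not called. Cdt1, the partner of Cdc6, was at 5.19, 1.49 and 4.95 CPM in KPF against 2.04, 1.63 and 5.51 CPM in WPF, with overlapping groups. Gins2, a subunit of the GINS complex that activates the helicase, had 3 to 17 reads and was left untested, with 17 reads in KPF replicate 3.

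Among the regulators of entry into S phase, a cyclin and a transcription factor were called. Ccne2, cyclin E2, the partner of Cdk2 (ENSMUSG00000028212, chromosome 4, 11191351 to 11204779, plus strand), was at 6.14, 4.04 and 5.52 CPM in KPF and 3.46, 2.2 and 1.93 CPM in WPF. The groups did not overlap, and the log2 fold change was 1.05 (SE 0.36, adjusted p = 0.430, edgeR; exact permutation p = 0.1). Ccne2 shares 5622 bases with Ints8 on the other strand, a gene with a mean of 249 reads. E2f1, the activating E2F factor, was at 6.61, 2.99 and 6.00 CPM in KPF and 1.51, 1.49 and 3.63 CPM in WPF (log2 fold change 1.22, SE 0.49), so that KPF replicate 2 was below WPF replicate 4. Ccne1, cyclin E1, was low in WPF replicates 2 and 3 (0.355 and 0.284 CPM) but reached 2.81 CPM in WPF replicate 4, above all KPF dams (1.42, 2.46 and 2.19 CPM). Ccnd1, the growth factor-responsive cyclin D1, and its kinase Cdk4 had fitted log2 fold changes of 0.11 (SE 0.37) and 0.00088 (SE 0.21), with 95% intervals of -0.75 to 0.96 and -0.49 to 0.49, and the sign of both turned with library totals in place of TMM. Cdk2 was fitted lower in KPF (log2 fold change -0.69, SE 0.40, not called), with KPF replicate 1 at 4.44 CPM below the other dams (11.3 to 19.8 CPM). Cdkn1a, the p21 inhibitor of these kinases and a target of p53, had the widest range of the tested G1/S genes within WPF (11.1-fold), at 17.0, 16.8 and 1.52 CPM, and was at 8.12, 2.37 and 15.1 CPM in KPF. WPF replicate 4, in which the G2/M genes were high, held its lowest level, and KPF replicate 3, in which they were higher still, its highest level in KPF.

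The sliding clamp and the enzymes of nucleotide synthesis showed no call. Pcna, the clamp that holds DNA polymerase on its template, was at 4.63, 4.30 and 9.71 CPM in KPF and 8.08, 6.61 and 5.97 CPM in WPF (log2 fold change -0.15, SE 0.37). Rrm1 and Tyms, for the large subunit of ribonucleotide reductase and for thymidylate synthase, were fitted at 0.36 (SE 0.39) and 0.49 (SE 0.34). Rrm2, the subunit of ribonucleotide reductase made in S phase, was spread more widely, at 0.755, 1.23 and 14.2 CPM in KPF and 4.88, 4.62 and 3.63 CPM in WPF. KPF replicate 3 was 11.5-fold above the next KPF dam, but unlike the G2/M genes Rrm2 was not high in WPF replicate 4.

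**Figure D2:**
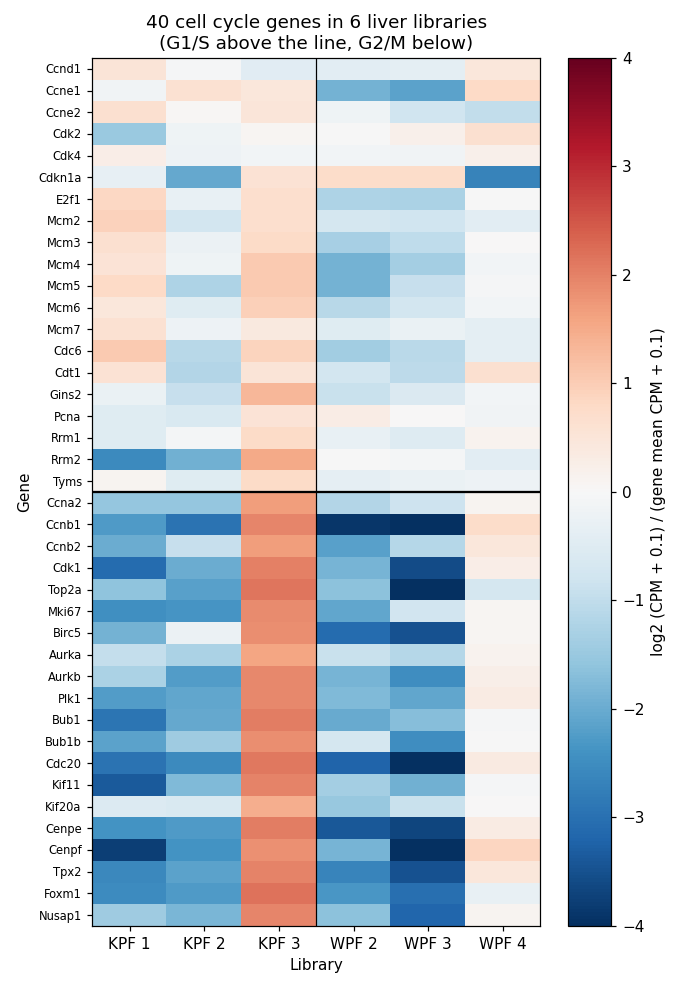
Level of each of the 40 genes (rows) in each library (columns), as log2 of CPM + 0.1 over the mean of the gene across the 6 libraries; the darkest blue also holds values beyond the scale. Below the line, KPF 3 is red for every G2/M gene and WPF 4 is near the gene's mean, while the other 4 libraries are below it; the G1/S genes above the line do not share this order.

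In bulk liver, the number of cells in a phase and the RNA per cell cannot be told apart, and this holds for all levels given here. For the G2/M genes, a pattern of single dams was seen. In all 20, KPF replicate 3 and WPF replicate 4 were both above the other 4 dams, a property of 1371 (9.70%) of the genes tested, and of 1 of the 19 tested G1/S genes. By a looser measure, 7 of the 19 G1/S genes (36.8%) were highest in both dams within their groups, against 15.5% of all genes tested. KPF replicate 3 exceeded the next KPF dam by 4.23- to 26.0-fold (median 15.8), whereas the median over all genes tested was 1.26. WPF replicate 4 exceeded the next WPF dam by a median of 4.04-fold, against 1.20 over all genes. KPF replicate 3 was also above WPF replicate 4 for all 20 genes, by 1.97- to 7.32-fold (median 3.35). Both dams also had the deepest library of their group, with 11567941 and 14496630 counted reads. The next deepest held 11368617 (KPF replicate 2) and 13121400 (WPF replicate 3), and CPM values are scaled to library size. The pattern was noticed in these data, and the dams were not regrouped by it for any test.

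**Figure D3:**
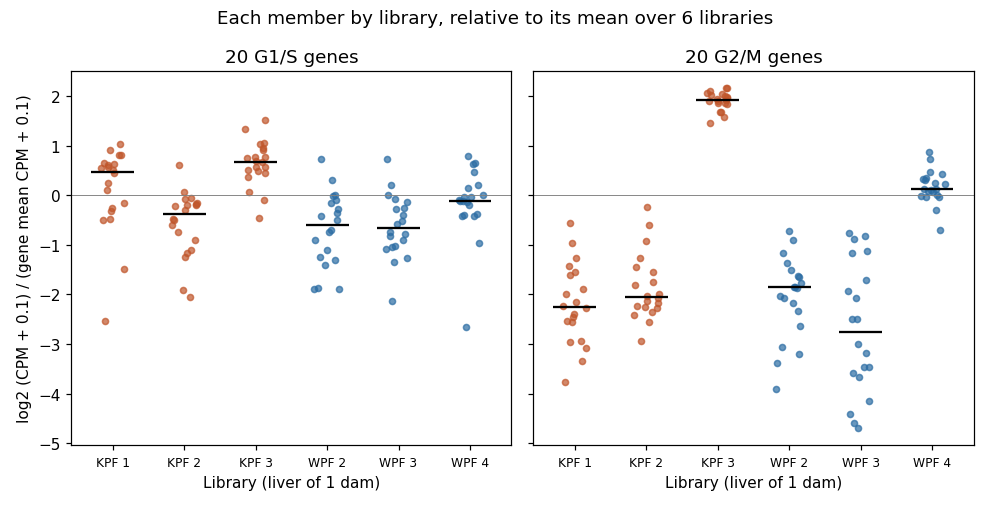
Each point is a gene, plotted by library (x axis) as log2 of CPM + 0.1 over the gene's mean across the 6 libraries (y axis), with the median of the genes as a bar; 20 G1/S genes are on the left and 20 G2/M genes on the right. The G2/M medians are 1.93 in KPF 3 and 0.12 in WPF 4 and between -2.75 and -1.86 in the other 4 libraries, and the G1/S medians lie between -0.66 and 0.67.

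The kinase that drives entry into mitosis and its cyclins followed the pattern closely. Cdk1 (ENSMUSG00000019942, chromosome 10, 69170976 to 69188768, minus strand), the gene whose TTTGAA and CCAAT letters were shown above, was at 0.850, 1.93 and 32.8 CPM in KPF and 2.13, 0.568 and 9.49 CPM in WPF. Ccnb1, cyclin B1, was covered by 8, 5 and 168 reads in KPF and by 2, 1 and 116 reads in WPF, so that it was barely seen in the other 4 dams. Ccnb2 and Ccna2, cyclins B2 and A2, were covered by at least 13 reads in every dam, and KPF replicate 3 was 6.18- and 9.66-fold above the next KPF dam. Foxm1, the transcription factor that activates many G2/M genes, was at 1.23, 1.49 and 34.2 CPM in KPF and 1.42, 0.853 and 6.09 CPM in WPF. For Foxm1, WPF replicate 4 was 4.29-fold above the next WPF dam.

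Genes of chromosome structure and of the kinetochore showed the same order. Mki67, which encodes the proliferation marker Ki-67 (ENSMUSG00000031004, chromosome 7, 135291513 to 135318090, minus strand), was at 8.69, 9.31 and 180.3 CPM in KPF against 11.5, 28.4 and 50.8 CPM in WPF. WPF replicate 3 was intermediate here, whereas for Top2a, topoisomerase II alpha, it was the lowest of all. Top2a was at 3.78, 2.55 and 52.7 CPM in KPF and 3.73, 0.568 and 7.21 CPM in WPF, and had the largest fitted log2 fold change of the G2/M genes (2.35, SE 1.24, not called). Cenpe and Cenpf, proteins of the kinetochore, reached 39.1 and 18.5 CPM in KPF replicate 3 and 11.8 and 9.37 CPM in WPF replicate 4, and were at 1.84 CPM or less in the other dams.

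The spindle genes Aurka, Tpx2, Plk1, Kif11 and Nusap1 shared the order. Aurka, a kinase of the spindle poles, had the mildest contrast of these, at 2.55, 2.02 and 15.2 CPM in KPF and 2.66, 2.2 and 5.51 CPM in WPF. Tpx2, its activator, was 19.0-fold higher in KPF replicate 3 than in the next KPF dam and 9.66-fold higher in WPF replicate 4 than in the next WPF dam. Plk1, Polo-like kinase 1, gave ratios of 17.3 and 4.49 by the same measure, and Kif11, the motor that separates the poles, 14.6 and 2.60.

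Genes of the late steps of division moved likewise. Aurkb and Birc5 encode parts of the chromosomal passenger complex, and Kif20a a motor of cytokinesis. Birc5 (survivin) was at 2.55, 8.17 and 35.3 CPM in KPF and 1.07, 0.781 and 10.1 CPM in WPF, and KPF replicate 2 came close to WPF replicate 4 for this gene. Kif20a had the smallest excess in KPF replicate 3, 4.23-fold over the next KPF dam, and shares 2327 bases with Cdc23 on the other strand. The checkpoint genes Bub1 and Bub1b reached 6.00 and 12.1 CPM in KPF replicate 3 and 1.35 and 3.22 CPM in WPF replicate 4. Cdc20, the activator of the anaphase-promoting complex (ENSMUSG00000006398, chromosome 4, 118290098 to 118294549, minus strand), had the highest excess in KPF, with 1.89, 2.55 and 66.3 CPM in KPF and 1.60, 0.497 and 19.7 CPM in WPF. Its mean FPKM of 8.0 was the highest per length of the G2/M genes, and that of Bub1, 0.305, the lowest.

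Between the groups, the G2/M genes were therefore measured with wide error. All 20 were fitted higher in KPF, with log2 fold changes of 0.83 to 2.35 (median 1.44), standard errors of 0.70 to 1.63 and 95% intervals that all included 0. The smallest adjusted p was 0.524, for Top2a (edgeR), and the groups overlapped for every gene. None had an unadjusted p under 0.05 in edgeR, and DESeq2, which gave no p for 6 of them, called 0. The higher direction rested on KPF replicate 3, and the size of the change also depended on WPF replicate 4. Without KPF replicate 3, 18 of the 20 were fitted lower in KPF (median -1.20) and 1 was called lower, against 925 of the 14138 genes tested. Without WPF replicate 4, all 20 were fitted higher (median 2.94) and 4 were called higher, against 796 over all genes. Without KPF replicate 2, 1 of the 20 was called higher, against 682 over all genes. With both KPF replicate 3 and WPF replicate 4 left out, an alternative added after the data were seen, the median was 0.24, while that of the G1/S genes was 0.85. Over the omission of each dam in turn, the G1/S median stayed between 0.45 and 0.88.

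**Figure D4:**
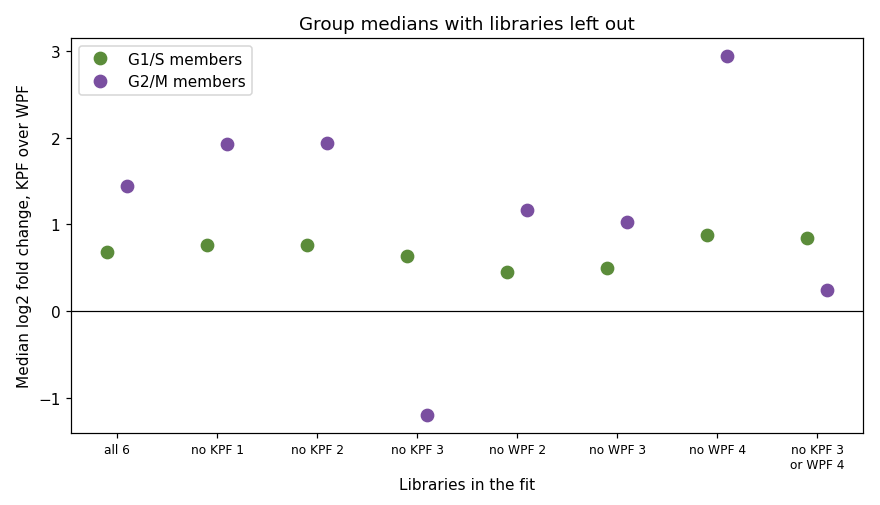
Median log2 fold change (KPF over WPF, y axis) of the tested G1/S genes (green) and G2/M genes (purple) with all 6 libraries and with libraries left out (x axis). The G1/S median stays above 0 in every fit, and the G2/M median runs from -1.20 without KPF 3 to 2.94 without WPF 4.

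Per unit of length, the balance between G1/S and G2/M transcripts set the dams apart. The summed FPKM of the 20 G1/S genes was 38.3, 25.02 and 43.4 in KPF and 24.95, 30.9 and 37.8 in WPF. That of the 20 G2/M genes was 8.22, 11.4 and 130.3 in KPF and 7.36, 9.54 and 51.4 in WPF. The ratio of G2/M to G1/S was thus 0.215, 0.455 and 3.01 in KPF and 0.295, 0.309 and 1.36 in WPF, and only KPF replicate 3 and WPF replicate 4 were above 1. The groups overlapped for both sums and for the ratio. KPF replicate 1 combined a high G1/S sum with a low G2/M sum, and KPF replicate 2 had the lowest G1/S sum of its group.

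Other genes of the same processes, from lists written by hand, were read in the same fit. Of 31 tested genes of DNA replication outside the 40, 4 were called higher and 0 lower, against 6.11% and 3.93% of all genes tested. These were Pole and Pold1, catalytic subunits of DNA polymerases epsilon and delta, Prim1, the primase, and Rfc4, of the clamp loader, with log2 fold changes of 1.73, 0.95, 1.63 and 0.88. Pole was at 12.3, 4.83 and 17.4 CPM in KPF and 2.48, 3.13 and 4.75 CPM in WPF, without overlap, as were 7.48% of all genes tested in this direction. Of 43 tested mitosis genes outside the 40, 0 were called and 0 had an unadjusted p under 0.05 (edgeR), with a median log2 fold change of 1.31, and KPF replicate 3 and WPF replicate 4 were both above the other dams for 36. The same order was found for 11 of the 31 other replication genes (35.5%), against 9.70% of all genes tested. A stricter measure, at least 2-fold over the next dam in both groups, was met by 15 of 20 G2/M genes, 30 of 43 other mitosis genes, 2 of 31 other replication genes and 0 of 19 G1/S genes, against 151 (1.07%) of all genes tested. Of those 151, 103 were in none of the lists. Esco2, an acetyltransferase of sister chromatid cohesion, Prr11 and Parpbp showed the largest excess of the 103 (by the smaller of both ratios), and genes such as Serpinb8, Cyp26a1 and Lifr were also among them. How many of the 103 act in the cell cycle was not counted.

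Regulators upstream of the cycle were read against the same share of all genes, 6.11% higher and 3.93% lower. Of 24 tested regulators of G1 (D-type cyclins, CDK inhibitors, pocket proteins and E2F factors), 0 were called and 0 had an unadjusted p under 0.05 (edgeR). For 10 of the 24 (41.7%), KPF replicate 3 and WPF replicate 4 were both above the other dams, against 9.70% of all genes tested. Of 19 tested targets and regulators of p53, 3 were called higher (Phlda3, Btg2 and Tnfrsf10b, with log2 fold changes of 2.48, 0.93 and 1.40) and 1 lower (Perp, -0.67), and Trp53 itself was fitted at 0.083. Of 14 tested growth signals and early growth genes, 1 was called, Myc, which was lower in KPF (log2 fold change -0.89, SE 0.30, adjusted p = 0.430, edgeR). It was at 3.96, 3.34 and 4.47 CPM against 7.63, 5.40 and 8.85 CPM in WPF, without overlap, as were 8.04% of all genes tested in this direction. Prlr, the receptor for prolactin and placental lactogen, was abundant, between 571 and 1197 CPM, and fitted at 0.10.

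Markers of the cells in the samples were read beside these results, with calls set against the 6.11% higher and 3.93% lower of all genes tested. The 6 hepatocyte markers summed to 78540 to 103800 CPM in KPF and 102400 to 175300 CPM in WPF, so that the ranges overlapped. Of the 6, 4 were fitted lower and 2 higher in KPF, and 0 were called. Alb was below every WPF dam in every KPF dam, as were 8.04% of all genes tested, and the groups overlapped for the other hepatocyte markers. Within the groups, the hepatocyte sum was highest in KPF replicate 3 and WPF replicate 2, and lowest in KPF replicate 2 and WPF replicate 4. Of 7 Kupffer cell markers, 4 were above the other dams in both KPF replicate 3 and WPF replicate 4, with sums of 139, 197 and 209 CPM in KPF and 149, 211 and 265 CPM in WPF. These 4 are 57.1% of the list, against 9.70% of all genes tested, and the G2/M sums were 35.3, 44.7 and 638 CPM in KPF and 39.5, 47.5 and 184 CPM in WPF. Lymphocyte markers summed to 19.6, 22.4 and 34.9 CPM in KPF and 13.1, 21.6 and 20.8 CPM in WPF, with all 6 tested genes highest in KPF replicate 3 within KPF and 1 of them, Cd3g, called higher. The 11 erythroid markers, mostly globin, summed to 352, 81.5 and 215 CPM in KPF and 38.9, 96.5 and 234 CPM in WPF. KPF replicate 2 and WPF replicate 2 were the lowest of their groups and WPF replicate 4 the highest of WPF, as for the MCM sum, and the part of erythroid RNA in that sum was not tested. Hemgn had 0 reads in every library and Rhag 1 read in all, and 1 erythroid gene, Slc4a1, was called higher. Granulocyte markers summed to 4.55 to 10.5 CPM and were not highest in KPF replicate 3. Of 7 stellate cell and collagen markers, 4 (Col3a1, Col1a1, Col1a2 and Reln) were called higher in KPF, with sums of 377, 230.2 and 169 CPM in KPF and 107, 131 and 122 CPM in WPF, and KPF replicate 3 was the lowest KPF dam. Of 6 endothelial markers, 4 were fitted higher and 2 lower in KPF, and 1 (Pecam1) was called higher. Their sums were 82.4 to 99.3 CPM over all 6 dams, and those of cholangiocyte markers 25.3 to 51.3 CPM with 0 calls. The labels give no date or batch. The part of cell composition, depth and dam in the levels of the G1/S and G2/M genes was not tested.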

How the data were processed

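Liver poly(A) RNA was sequenced from 6 dams, 3 in each group, and the authors deposited, for each gene, raw read counts and FPKM values side by side. The submitters' processing notes name cutadapt 1.9.1, HISAT2 2.2.1, HTSeq 0.6.1, DESeq2 and GRCm39. The strand setting and overlap mode of the counting were not given in the sources used here, and 8 of the 40 genes overlap a gene of the other strand with a mean of at least 10 reads. The deposited FPKM values equal counts over exonic length and library total for 100% of values within 0.0051. Libraries held 10694496 to 14496630 counted reads, so genes with few reads are measured with wide error.

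Symbols were matched to gene IDs for 52073 of 56691 rows (4618 were not matched). Counts of all genes with a mean of at least 10 reads were fitted with edgeR 4.0.16 (quasi-likelihood, TMM, R 4.3.3, Benjamini-Hochberg over 14138 genes), without covariates, and the script was tested on simulated data. Genes named were the 40 members, Mlxipl, and up to 3 called genes of each other list by p. Named beyond this rule, after their values were seen, were the remaining called genes of the replication, stellate and p53 lists (Rfc4, Reln and Perp), Prlr, Trp53, Alb, Hemgn, Rhag, overlapping genes, and 6 genes outside the lists. The members and lists were chosen with earlier results of these data known. P-values set the difference between the groups against the spread between dams, which the labels number but do not describe further. DESeq2 1.42.0, limma 3.58.1 on log2(FPKM + 1), other scalings and filters, each dam left out and the replicate number as a block were alternatives.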

Additional observations from a re-analysis of the deposited data

How the results depend on the processing

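Counts of genes called higher and lower in KPF (864 and 556 with edgeR on TMM-scaled counts) were 574 and 794 when TMM was replaced by library totals, 1576 and 910 with no filter, 236 and 557 with limma on log2(FPKM + 1), and 1260 and 988 with KPF replicate 3 and WPF replicate 4 both left out, an alternative added after the data were seen. Library totals moved the median log2 fold change of all genes from 0.02 to -0.083, and the share of calls that were higher was 60.9% under TMM scaling, 42.0% for library totals and 29.8% for limma. Genes with an adjusted p under 0.05 numbered 0 in edgeR, 167 in DESeq2, 286 with no filter and 2 with both dams left out. Leaving out each dam in turn gave 445 to 1233 genes called higher, 314 to 925 lower and 0 to 5 with an adjusted p under 0.05.

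Of the 40 genes, 6 were called higher in the fit reported, 1 with library totals, 0 with limma, 10 with no filter and 0 to 11 over dams left out, and 0 were called lower, against 1 with no filter, 3 with both dams left out and 0 to 2 over dams left out. For G1/S the higher count was 1 with library totals, 0 with limma and 0 to 10 over dams left out, the lower count 1 with no filter, 2 with both dams left out and 0 to 1 over dams left out, and the median log2 fold change 0.19 with limma, whose scale compresses low genes, and 0.45 to 0.88 over dams left out. For G2/M, 3 were called higher with no filter, 1 with both dams left out (and 1 lower) and 0 to 4 over dams left out (0 to 1 lower), and the median was 0.33 with limma and ran from -1.20 to 2.94 over dams left out. With the filter at a mean FPKM of at least 1, 25 of the 40 genes were tested and 4 were called higher, against 634 of all 10866 genes tested. The G1/S median was 0.35 with this filter, and no sign changed. DESeq2 called 7 of the 40 higher, against 875 over all genes, with no sign changed, and gave no p for 6 of the 40.

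Replicate numbers 2 and 3 occur in both groups but stand for different dams, and their deviations correlated at 0.035 and -0.044. Number 1 occurs only in KPF and number 4 only in WPF. With the number as a block, the group difference therefore came only from replicates 2 and 3 of each group, without WPF replicate 4. In that fit 11 of the 40 genes were called higher, against 842 of the 14138 genes tested. Of the 11, 6 were G2/M genes (median log2 fold change 2.72), and Cdk4 (-0.029) and Rrm2 (-0.0079) changed sign. Other sign changes of the log2 fold change were Ccnd1 (-0.026) and Cdk4 (-0.11) with library totals, Cdk4 (-0.086) and Rrm2 (-0.27) with limma, Cdk4 (-0.035) with no filter, and, with KPF replicate 3 and WPF replicate 4 both left out, Rrm2 (-2.24), Ccna2 (-0.58), Mki67 (-1.15), Aurka (-0.089), Plk1 (-0.26), Bub1 (-0.76), Bub1b (-0.41), Kif11 (-0.78) and Cenpf (-0.28).

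Over dams left out, the log2 fold change changed sign for 5 G1/S genes, with ranges of -0.19 to 0.46 for Ccnd1, -0.15 to 0.11 for Cdk4, -0.62 to 0.054 for Pcna, -0.070 to 0.61 for Rrm1 and -2.12 to 0.81 for Rrm2, and for 18 of the 20 G2/M genes, in each of these without KPF replicate 3, with ranges of -1.06 to 1.36 for Ccna2, -1.99 to 5.44 for Ccnb1, -0.83 to 1.99 for Ccnb2, -1.55 to 3.14 for Cdk1, -0.29 to 3.21 for Top2a, -1.75 to 1.71 for Mki67, -0.60 to 1.43 for Aurka, -0.87 to 2.86 for Aurkb, -1.49 to 2.48 for Plk1, -1.85 to 2.70 for Bub1, -1.06 to 1.92 for Bub1b, -1.72 to 4.50 for Cdc20, -1.58 to 2.24 for Kif11, -1.33 to 4.28 for Cenpe, -2.62 to 3.17 for Cenpf, -1.56 to 3.75 for Tpx2, -1.05 to 3.42 for Foxm1 and -0.70 to 3.03 for Nusap1. The cause was not tested.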
